A study of Schizosaccharomyces pombe with 50 samples.

Results

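Histone H3 dimethylated at lysine 9 (H3K9me2) was compared with histone H3 in vegetative fission yeast cells, that is, in V cells that were growing. The 3 H3K9me2 libraries and the 3 H3 libraries of these cells were taken, 6 of the 50 samples of the series, and each H3K9me2 library was divided by the H3 library with the same replicate number. All of them came from strain Hu3112, described as wild type, with the genotype mat1-M smt-0 pht1-myc, so the H2A.Z gene carries a Myc tag in every library. The cells were at mid-log phase in PMG, a minimal medium with nitrogen, at 30 °C. The series also holds libraries of the same strain after nitrogen was removed (Q cells) and libraries of 6 other antibodies, and the study describes the libraries of each antibody as biological triplicates. The study describes ORF windows as reaching from the start to the end of a transcript with 200 bp added on either side. Of the 6521 windows matched to the annotation used here, 4118 begin 200 bp below the annotated start. The windows of some genes hold only part of the gene, and this is stated beside the values of several of them.

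H3K9me2 is the defining mark of heterochromatin in this yeast. The methyltransferase Clr4 places it, HP1-like proteins such as Swi6 bind it, and genes in marked chromatin are mostly silent. Constitutive heterochromatin covers the repeats beside the centromeres, the chromosome ends and the silent mating-type cassettes, where it is needed for chromosome segregation and for keeping one mating type silent. Facultative heterochromatin forms small islands in growing cells, many of them at meiotic genes whose transcripts the RNA-binding protein Mmi1 directs to the nuclear exosome. Because whole cultures were sampled, a smaller share of marked cells and less mark per cell cannot be told apart.

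Values are log2 ratios of H3K9me2 over H3 (1 was added to each normalised value), centred in each replicate on the median of the windows tested, so that 0 is the typical window and 1 is 2 times that level. Of 6613 windows, 6573 had an H3 value of at least 10 in all 3 libraries and were tested with limma. Each of the 40 windows left out had at least 10% of its 36-base words repeated elsewhere in the genome, 36 bases being the read length. Windows were called enriched at an adjusted p under 0.05 with a log2 ratio above 1. The libraries held 5516991, 856936 and 1182100 H3K9me2 reads in ORF windows (replicates 1 to 3), and 11029949, 9931569 and 9490762 H3 reads. As a check of the growth label, RNA polymerase II phosphorylated at S5, again over H3, had a median log2 ratio of 1.33 ± 0.18 (SD, n = 3) at 150 cytosolic ribosomal protein genes and of −1.66 ± 0.67 at the 16 core quiescence genes.

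Outside the mitochondrial genome, H3K9me2 was high at a small number of windows that lay mostly in known heterochromatin. Limma called 72 of 6573 windows enriched (1.1% of those tested) and 0 depleted. Of the 72, 37 were on the mitochondrial genome and 35 elsewhere, which is 0.536% of the 6535 windows outside the mitochondrial genome. The 35 comprised 16 windows near the ends of chromosomes I and II, 2 at the right end of chromosome III, 11 beside the centromeres, the silent cassette gene mat2-Pc and 5 windows in other places. The smallest adjusted p was 0.0292 (limma). At an unadjusted p under 0.05, 87 windows had a ratio above 1 and 0 had a ratio below −1, and edgeR and DESeq2 also called 0 windows depleted. When the same-numbered libraries were not paired, limma called 0 windows enriched, with 82 at an unadjusted p under 0.05.

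The 3 replicates differed in strength. Across all windows tested the ratios correlated between replicates 1 and 2 at a Spearman's rho of 0.28, between 1 and 3 at 0.67 and between 2 and 3 at 0.41, a description over windows that are not independent. At the 35 windows the median log2 ratio was 1.12 in replicate 1, 3.60 in replicate 2 and 3.29 in replicate 3. Replicate 1 was the lowest of the 3 in 35 of 35 windows, replicate 2 the highest in 23 and replicate 3 in 12. These windows took 0.658%, 3.58% and 2.72% of all H3K9me2 reads in ORF windows, against 0.248%, 0.245% and 0.241% of the H3 reads, with reads in overlapping windows counted more than once. All 35 were above 0 in all 3 replicates, but they were called on these same ratios, so this is no separate evidence. Over all windows tested the share above 0 in all 3 replicates was 24.8%. Without replicate 1, limma called 88 windows, 50 of them outside the mitochondrial genome and including all 35.

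**Figure D1:**
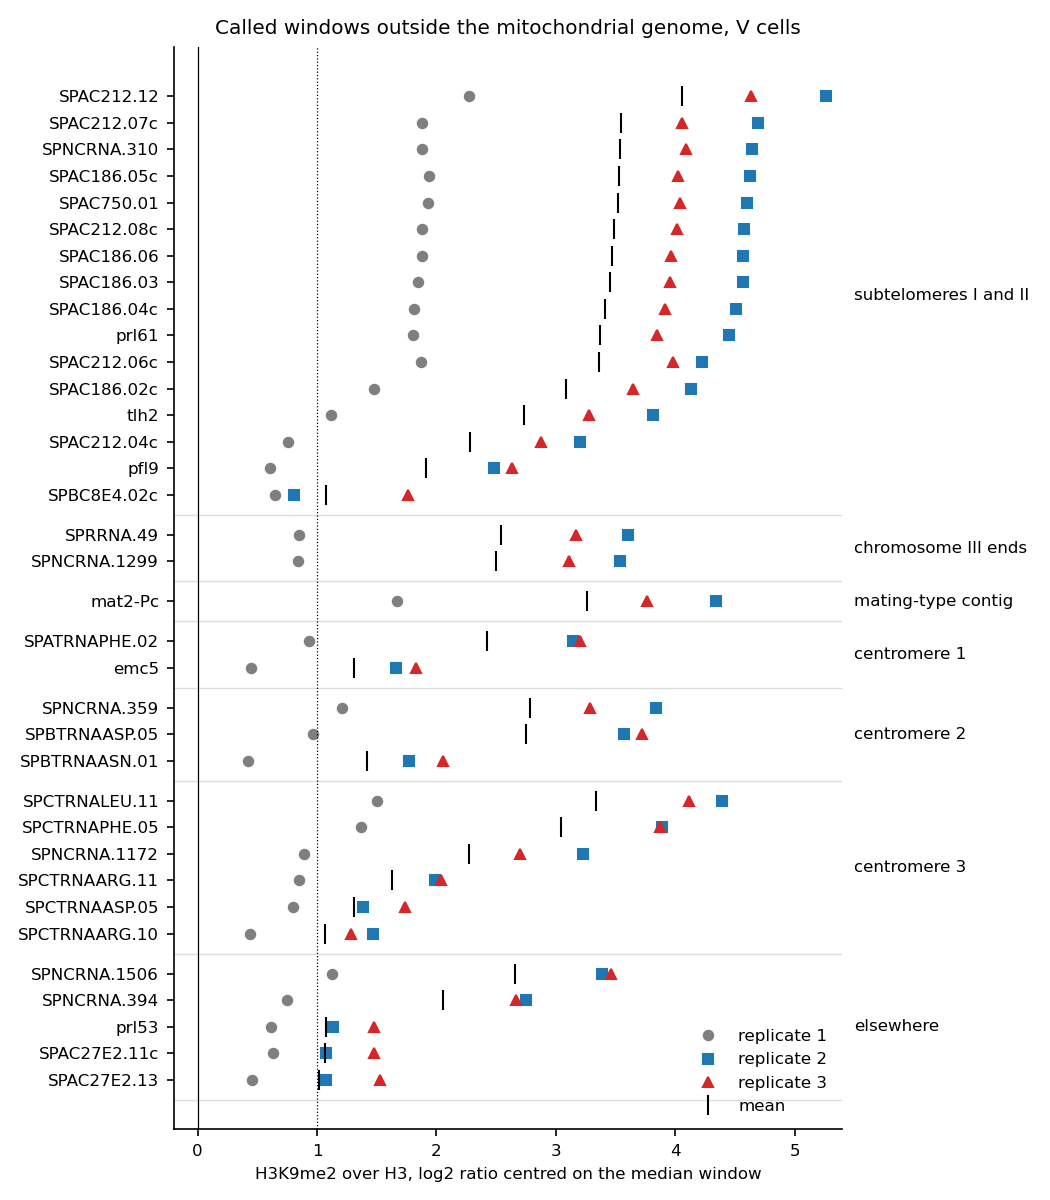
Log2 ratio of H3K9me2 over H3 in V cells for the 35 called windows outside the mitochondrial genome, 1 row per window and 1 symbol per replicate, with a tick for the mean of the 3; the dotted line marks a ratio of 1. In every row replicate 1 is the leftmost symbol, and the subtelomeric rows reach the highest ratios.

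The deposited values also showed an upper limit. A window can receive at most 1 read per start position and strand if reads with the same start are counted once, and no ORF window in the 24 V libraries exceeded 100.452% of that number when every position was counted. The methods and labels do not state whether duplicate reads were removed. In H3K9me2 replicates 1 to 3 the median window stood at 21.8%, 3.06% and 4.27% of the maximum. Of the 35 windows, 11 stood above 90% of it in all 3 H3K9me2 libraries, when only words that occur once in the genome were counted. This correction is approximate, since SPAC212.12 then reached up to 110.2%, SPAC212.08c 104.8% and SPAC186.03 100.8%. Those 11 held 20987, 21524 and 21698 reads in total, nearly equal numbers from libraries of very unequal depth. If the maximum was set by the processing, a window at it cannot gain H3K9me2 reads with depth and its ratio understates the difference. For tlh2, one of the 11, H3 stood at 84.7%, 81.2% and 79.5% of the maximum, so both sides of its ratio were limited. The median log2 ratios of the 11 windows were 1.88, 4.57 and 4.02. A further 16 of the 35 stood under 50% in all 3 libraries, with medians of 0.70, 1.88 and 2.05, and replicate 1 was the lowest in 16 of 16 there too. The part that the maximum has in the difference between the replicates was not tested.

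**Figure D2:**
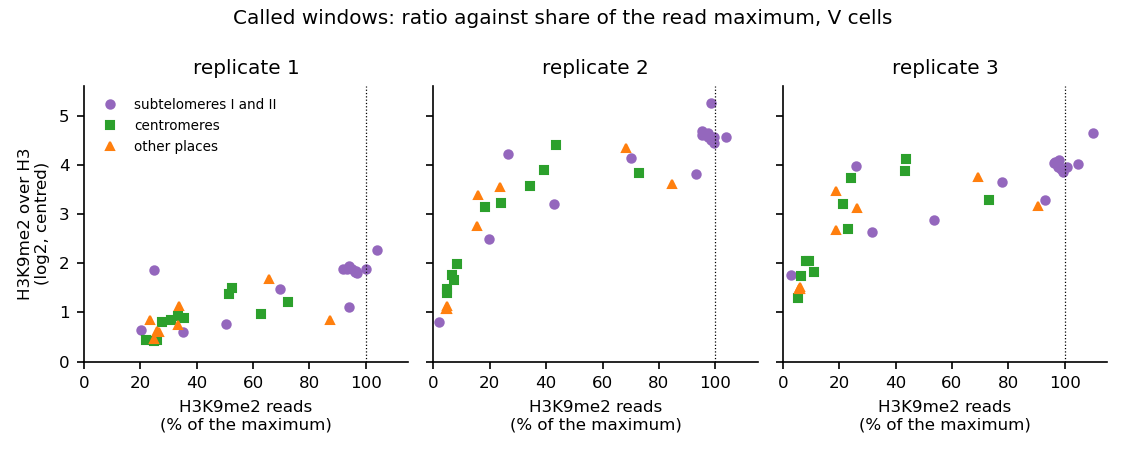
For the 35 called windows, the log2 ratio of H3K9me2 over H3 in each replicate (vertical) against the H3K9me2 reads as a percent of 1 read per start position and strand (horizontal, corrected for repeated words except on the mating-type contig), with the dotted line at 100%. Most subtelomeric windows are piled up close to the maximum in all 3 libraries, and centromeric windows lie below it.

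The subtelomeres of chromosome I held most of the windows with high ratios of H3K9me2. SPAC212.12, annotated as a GPI-anchored protein gene 16040.5 bp from the left end, had log2 ratios of 2.27, 5.26 and 4.64, with 423, 401 and 448 H3K9me2 reads against 171, 127 and 149 H3 reads. Its mean was 4.05 ± 0.47 (SE, adjusted p = 0.0292, limma). This window was at the read maximum in all 3 H3K9me2 libraries and 75.8% of its words are repeated elsewhere, so its rank among the windows at the maximum cannot be read. Next to it the pseudogene SPAC212.07c, with 0% repeated words, had 1.88, 4.69 and 4.06 and a mean of 3.54 ± 0.44 (adjusted p = 0.0292, limma). On this arm all 5 tested windows within 25 kb of the end were called, at medians of 1.88, 4.57 and 4.02. The 3 tested windows from 25 to 50 kb had medians of 0.01, 0.35 and 0.08 and none was called.

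On the right arm of chromosome I the block of H3K9me2 was continuous over 9 tested windows, whose centres lay from 22.9 to 50.9 kb from the end. The gene SPAC750.01, for an aldo/keto reductase, was the outermost, with 1.93, 4.61 and 4.04. The non-coding RNAs prl61 (1.81, 4.45 and 3.85) and SPNCRNA.310 (1.88, 4.64 and 4.09) followed, and then a run of SPAC186 genes. Within that run SPAC186.05c, for a GDT1-like protein, held 3654, 3768 and 3793 H3K9me2 reads against 1865, 1866 and 1940 H3 reads, and its log2 ratios were 1.94, 4.63 and 4.02, with a mean of 3.53 ± 0.42 (SE, adjusted p = 0.0292, limma). From SPAC750.01 to SPAC186.03, for L-asparaginase, all 7 windows held over 90% of their read maximum in each H3K9me2 library, and H3 stood between 47.5% and 57.4% of it. Their like ratios therefore do not show that the mark is level over the block.

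The same block had a graded inner edge. The dehydrogenase gene SPAC186.02c, 48635.5 bp from the end, had 1.47, 4.13 and 3.65. Its inner neighbour pfl9, which encodes a cell-surface glycoprotein of the DIPSY family, had 0.61, 2.48 and 2.63, with 1377, 779 and 1240 H3K9me2 reads, and its mean was 1.91 ± 0.34 (SE, adjusted p = 0.0469, limma). Further inwards the non-coding RNAs SPNCRNA.284 and SPNCRNA.283 passed the p threshold but not the fold threshold, with means of 0.85 (adjusted p = 0.0485, limma) and 0.79 (adjusted p = 0.0469, limma). The amidase gene SPAC869.01 had −0.14, 0.74 and 0.56, so that its replicates lay on both sides of the typical window. For H3K9me3 over H3, pfl9 had log2 ratios of −0.18, 0.22 and 1.09, and its replicates again lay on both sides of 0.

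The other chromosome ends gave few calls, and few of their outermost genes could be tested. On the right arm of chromosome II, tlh2, a gene for a RecQ-type helicase found at telomeres, had log2 ratios of 1.12, 3.81 and 3.28, with 1193, 1185 and 1181 H3K9me2 reads, and a mean of 2.74 ± 0.42 (SE, adjusted p = 0.0432, limma). The repeated share of this window is 90.2%, so reads of other helicase copies may be counted in it. The non-coding RNA SPNCRNA.448 on the same arm had 0.27, 1.05 and 2.43 and did not pass (adjusted p = 0.148, limma). On the left arm of chromosome II the outermost tested window lay 33.4 kb from the end, and 0 of 27 tested windows within 100 kb were called. Extra contigs apart from the chromosomes held 6 tested windows, with medians of −0.07, −0.05 and −0.12. SPBC460.01c, SPBC460.02c, vba2 and SPBC460.04c lie there on a telomeric gap contig of chromosome II, and none of them was called. The 1 called window of the extra contigs was mat2-Pc.

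The ends of chromosome III carry the ribosomal DNA. There SPRRNA.49, a 28S ribosomal RNA gene, had 0.85, 3.60 and 3.17, and the non-coding RNA SPNCRNA.1299 had 0.84, 3.54 and 3.11. Both were called at the right end, with adjusted p = 0.0469 each (limma), and their repeated shares were 98.5% and 90.3%. SPRRNA.49 held 104, 101 and 108 H3K9me2 reads against 114, 101 and 99 H3 reads. It stood at 87.3%, 84.8% and 90.6% of the read maximum for H3K9me2 and at 95.7%, 84.8% and 83.1% for H3. SPNCRNA.1299 held 55, 56 and 62 against 61, 58 and 59. These H3K9me2 reads were nearly equal in libraries of very unequal depth, so the size of the 2 ratios cannot be read. None of the 13 tested windows in the list for the left end was called.

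**Figure D3:**
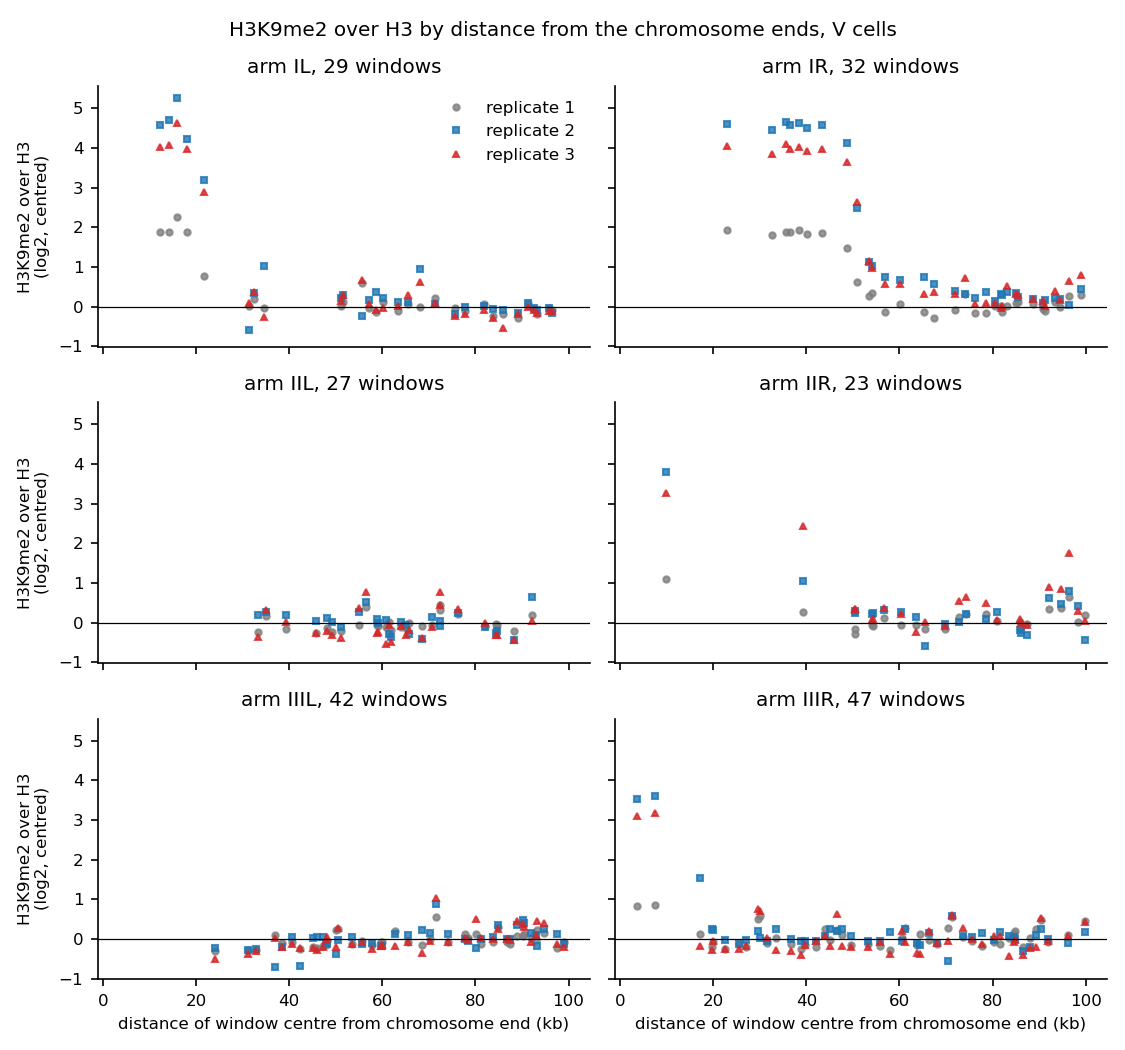
Log2 ratio of H3K9me2 over H3 (vertical) of each tested window within 100 kb of a chromosome end against the distance of its centre from that end (horizontal, kb), for the 6 arms and 3 replicates of V cells. The 5 outermost windows of IL and the 9 outermost of IR stand far above the windows further in, as do tlh2 on IIR and the 2 outermost windows of IIIR.

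At the centromeres, H3K9me2 was seen through the genes on their flanks, since the repeats themselves hold almost no ORF window. Stretches of 38105, 41885 and 44221 bp at centromeres 1, 2 and 3 held no tested window. Among the tested windows of the 3 centromere lists 11 were called: 2 of 13 at centromere 1, 3 of 12 at centromere 2 and 6 of 18 at centromere 3. The list medians were 0.53 ± 0.25, 0.54 ± 0.22 and 0.91 ± 0.43 (SD, n = 3), against 0 for all windows tested by construction.

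Of the 11, 8 were windows of tRNA genes, which are known in this yeast to stand at the borders of centromeric heterochromatin, where RNA polymerase III factors bind the B box inside the gene. To show that element, the sequence of a called tRNA gene beside each centromere is given from RefSeq (build ASM294v3), 5′ to 3′ on the strand of the gene, with the B box (GGTTCGANNCC) in capitals. SPATRNAPHE.02 lies at chrI:3752334-3752406 on the minus strand, SPBTRNAASN.01 at chrII:1597996-1598069 on the minus strand and SPCTRNALEU.11 at chrIII:1069166-1069244 on the plus strand.
SPATRNAPHE.02: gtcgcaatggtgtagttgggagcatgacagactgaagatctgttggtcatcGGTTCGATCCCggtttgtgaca
SPBTRNAASN.01: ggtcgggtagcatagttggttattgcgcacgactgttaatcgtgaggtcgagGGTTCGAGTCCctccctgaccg
SPCTRNALEU.11: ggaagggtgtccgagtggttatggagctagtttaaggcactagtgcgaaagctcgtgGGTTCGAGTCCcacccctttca
On either strand the motif occurred in 8 of the 8 called tRNA genes and in 75 of the 126 nuclear tRNA genes with a window (59.5%). The match is a description of the gene and not of its occupancy.

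The tRNA windows differed widely among themselves. SPCTRNALEU.11, at the left edge of centromere 3, had log2 ratios of 1.51, 4.40 and 4.12, with 513, 425 and 427 H3K9me2 reads against 353, 246 and 204 H3 reads, and a mean of 3.34 ± 0.48 (SE, adjusted p = 0.0375, limma). SPCTRNAPHE.05, at the right edge of the same centromere, had 1.37, 3.89 and 3.87, with a mean of 3.04 ± 0.43 (adjusted p = 0.0375, limma). SPATRNAPHE.02, at the left edge of centromere 1, had 0.93, 3.15 and 3.20. Both phenylalanine tRNA genes have the same sequence over all 73 bases, but their windows reach into different flanks and only 11.4% and 11.2% of the words in them are repeated.

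Outwards from SPCTRNALEU.11 the neighbouring windows had lower ratios than it. The overlapping non-coding RNA SPNCRNA.1172, annotated as lying beside the centromere, had 0.89, 3.23 and 2.70. The arginine tRNA gene SPCTRNAARG.11 had 0.85, 1.99 and 2.04, SPCTRNAASP.05 (annotated as an asparagine tRNA) 0.80, 1.39 and 1.74, and SPCTRNAARG.10 had 0.44, 1.47 and 1.29. Further out the mean was 0.886 at SPCTRNASER.09 and 0.893 at SPNCRNA.480, and beyond these it was higher again. The valine tRNA gene SPCTRNAVAL.12 had 0.85, 0.93 and 2.54 and a mean of 1.44 (adjusted p = 0.0804, limma), with 12 and 22 H3K9me2 reads in replicates 2 and 3. The alanine tRNA gene SPCTRNAALA.12 had a mean of 1.27 (adjusted p = 0.0566, limma). Neither SPCTRNAVAL.12 nor SPCTRNAALA.12 passed the p threshold. Several of the windows on this side overlap and share reads, so they are not separate measurements. SPCTRNAGLU.10, which lies between SPCTRNALEU.11 and SPCTRNAPHE.05, had 0.36, −0.65 and 0.65 and did not pass (adjusted p = 0.762, limma), so its replicates did not agree in direction.

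At centromere 2 the non-coding RNA SPNCRNA.359, annotated as centromeric, had 1.21, 3.84 and 3.29. It held 943, 951 and 953 H3K9me2 reads against 796, 810 and 810 H3 reads, and its repeated share is 75.8%. Its H3K9me2 reads were nearly equal in libraries of very unequal depth, so the size of its ratio cannot be read. The neighbouring SPBTRNAASP.05 (annotated as an asparagine tRNA) had 0.96, 3.57 and 3.72, and SPBTRNAASN.01 had 0.42, 1.77 and 2.05. Those calls were all on the left side of the gap. SPBTRNAMET.05, whose window overlaps that of SPBTRNAASN.01, had 0.43, 1.63 and 2.20 and was not called. Its mean was 1.42, against 1.41 for SPBTRNAASN.01. On the right side SPBTRNAARG.07 reached a mean of 0.84 ± 0.16 (SE, adjusted p = 0.0476, limma), which passed the p threshold but not the fold threshold. At centromere 1 the only called protein-coding window was emc5, for a subunit of a membrane protein complex of the endoplasmic reticulum, on the right edge, with 0.45, 1.66 and 1.83. The emc5 window holds 46.6% of the gene.

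**Figure D4:**
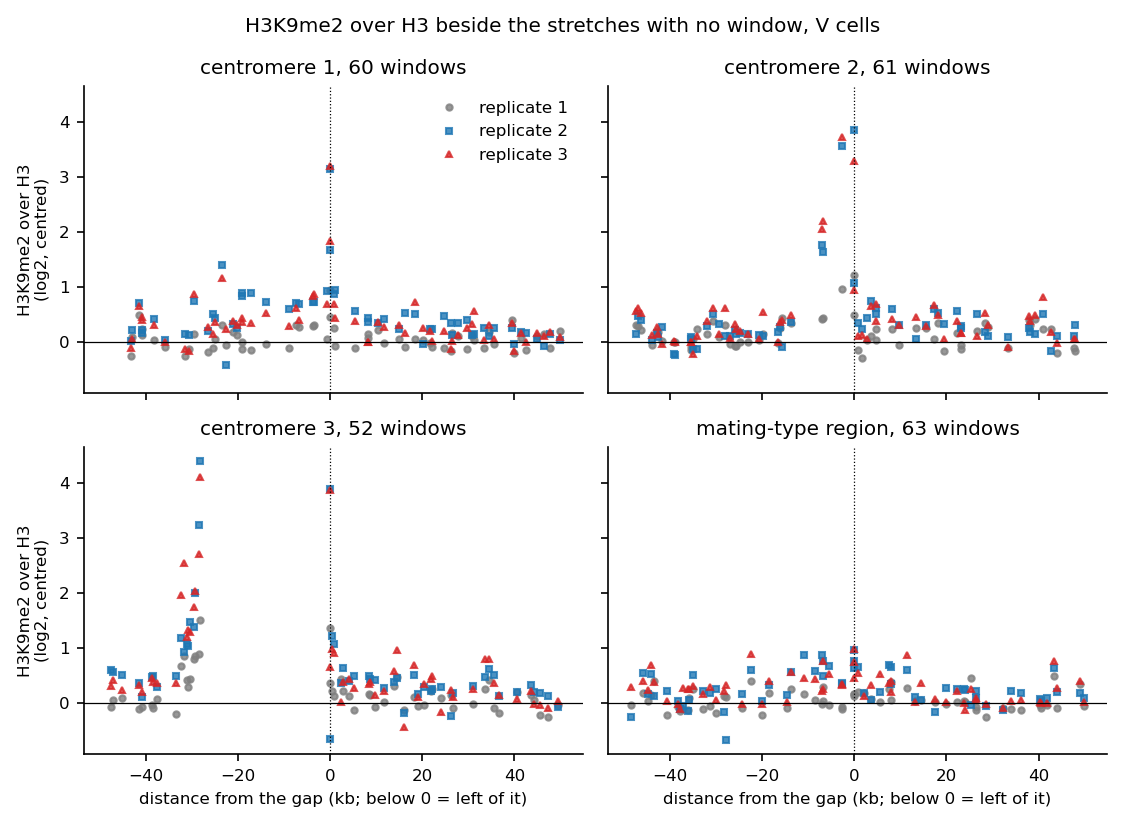
Log2 ratio of H3K9me2 over H3 (vertical) against distance from the nearer edge of the stretch without tested windows (horizontal, kb, negative to the left), for the 3 centromeres and the mating-type region in V cells, by replicate. The highest ratios at centromeres 1 and 2 lie at the edge or within 10 kb of it, those to the left of centromere 3 form a separate cluster, and the mating-type flanks stay below 1.

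tRNA genes as a class were also slightly above the typical window. The median over 117 tested tRNA genes was 0.48 ± 0.26 (SD, n = 3), and 8 were called (6.84%), all 8 among the 14 tested tRNA genes of the centromere lists. The tested tRNA genes outside those lists had a median of 0.42. Ribosomal protein genes, which are the most strongly transcribed genes of growing cells, had a median of 0.31 ± 0.13, and 82% of 150 were above 0 in all 3 replicates. Of the 150, 0 were called, where 0.536% of all windows outside the mitochondrial genome were.

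The silent mating-type cassettes were covered by a separate contig. Its gene mat2-Pc, which encodes a mating-type protein that is silent at this cassette, had log2 ratios of 1.67, 4.34 and 3.76, with 1145, 1190 and 1204 H3K9me2 reads against 702, 718 and 738 H3 reads. The mean was 3.26 ± 0.42 (SE, adjusted p = 0.0335, limma). None of the 18 tested windows flanking the region on chromosome II was called. The highest of them, the ribosomal protein gene rpp202 at the left edge, had 0.16, 0.97 and 0.98 and a mean of 0.70 (adjusted p = 0.0710, limma). The rpp202 window holds 55.6% of the gene.

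No gene of the lists for facultative heterochromatin was called, and the windows of several listed genes hold only part of the gene. Of the 11 tested windows in the list of meiotic genes related to Mmi1, 0 were called enriched, with a median of 0.22 ± 0.10 (SD, n = 3). Only 0.536% of all windows outside the mitochondrial genome were called, so 0 calls in a list this small do not set it apart. The highest was mei4, which encodes the forkhead transcription factor of meiosis and whose transcript is a classical target of Mmi1. Its window (chrII:1472925-1475485) had 1458, 574 and 719 H3K9me2 reads against 2409, 2284 and 2160 H3 reads, and log2 ratios of 0.24, 1.62 and 1.47. Replicate 1 was thus close to the typical window, and the other 2 replicates were well above it.

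The mean of mei4 was 1.11 ± 0.23 (SE), with an adjusted p of 0.0504 by limma, just outside the threshold. EdgeR on recovered reads gave 0.0465, limma without the mitochondrial windows 0.0121 and DESeq2 0.116 as adjusted p. Without replicate 1 the ratio of mei4 was 1.55 (adjusted p = 2.21e-06, limma), without replicate 2 it was 0.86 (adjusted p = 0.0548) and without replicate 3 it was 0.93 (adjusted p = 0.000523), below the fold threshold. The windows beside it were lower: the window over the start of mei4 had −0.16, 0.31 and 0.41, the overlapping neighbour act1, the actin gene, had 0.01, 0.38 and 0.38, and cdk9 on the other side had 0.14, 0.08 and 0.12.

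Mmi1 recognises the hexamer UNAAAC in RNA. The stretch of mei4 coding sequence with most copies is shown because mei4 had the highest ratio of the list, although it was not called, and is a known target of Mmi1. It was read from RefSeq (ASM294v3, chrII:1473715-1474014, plus strand, 5′ to 3′), with the hexamer TNAAAC on the coding strand in capitals.
mei4: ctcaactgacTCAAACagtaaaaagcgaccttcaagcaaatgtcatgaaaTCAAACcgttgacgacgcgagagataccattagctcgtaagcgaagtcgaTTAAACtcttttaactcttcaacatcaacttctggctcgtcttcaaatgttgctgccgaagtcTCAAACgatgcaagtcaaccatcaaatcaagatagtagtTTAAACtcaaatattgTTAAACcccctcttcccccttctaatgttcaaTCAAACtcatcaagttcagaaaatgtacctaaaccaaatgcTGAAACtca
The 300 bases held 8 hexamers. Of 5039 protein-coding genes searched on their coding strand, 2 (0.0397%) held at least 8 in their best 300 bases, and 80.8% held at least 1. The 2 genes were mei4 itself and mug8, whose window, holding 15% of the gene, had a mean ratio of 0.39 and was not called. Among the 10 protein-coding genes of the list the best stretch held a median of 5.5, yet their ratios ranged from −0.21 at spo5 to 1.11 at mei4. These matches describe the sequence only.

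The other meiotic genes of the list were lower than mei4. The dynactin subunit gene ssm4 had 0.14, 0.95 and 0.79 over its whole window and a mean of 0.63 ± 0.14 (SE, adjusted p = 0.0579, limma), while its start window had 0.26, 1.77 and 1.26. The meiotic gene mcp7 had 0.36, 0.59 and 0.70. The window of ubp8, the gene for the ubiquitin protease of the SAGA complex, had 0.25, 1.49 and 1.38 and a mean of 1.04 (adjusted p = 0.0504, limma). It begins 367 bp beyond the window of mcp7 but lies mostly within the annotated mcp7 gene, of which the mcp7 window holds 22.5%, so the value of the listed window leaves out most of that gene.

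Several listed genes were covered by their windows only in part. The windows held 15% of mug8, 12.5% of the meiotic cohesin gene rec8 and 23.8% of spo5, against 100% of mei4, ssm4 and the dynein anchor gene mcp5. The means of rec8, spo5, the cyclin gene crs1, mug9 and mug10 lay between −0.21 and −0.06, and of these the windows of rec8, spo5, crs1 and mug10 held 35% of the gene or less. The meiotic non-coding RNA gene sme2, at which Mmi1 gathers in meiosis, had 0.26, 0.42 and 0.49 (adjusted p = 0.0654, limma). Among 127 mug and meu genes, which are upregulated in meiosis, 0 were called, where 0.536% of all windows outside the mitochondrial genome were, and the median was −0.08 ± 0.02 (SD, n = 3). Of these, 2 were higher at an adjusted p under 0.05 (limma) without reaching the fold threshold, mug155 among them at a mean of 0.56.

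Of the 5 genes listed for other islands, 0 were called, where 0.536% of all windows outside the mitochondrial genome were. SPAC8C9.04 was the highest, with 0.07, 0.83 and 0.62 and a mean of 0.50 (adjusted p = 0.0770, limma). The transcription factor gene mbx2 had 0.20, 0.09 and 0.36, and SPCC1442.04c had −0.17, −0.20 and −0.32 over a window that holds 50.0% of the gene. The retromer gene vps29 had 0.05, 0.43 and 0.37 over a window that holds 34.3% of the gene. Near vps29, moa1, the meiotic kinetochore gene, had 0.30, 1.40 and 1.15 and a mean of 0.95 ± 0.19 (SE, adjusted p = 0.0476, limma), just below the fold threshold. For the phosphoketolase gene SPBC24C6.09c the mean was −0.03, while SPNCRNA.1506, 1443 bp away, was among the called windows.

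The 5 called windows outside the regional lists lay at 3 loci. SPNCRNA.1506, a non-coding RNA window that overlaps a long terminal repeat of a retrotransposon, had 1.13, 3.39 and 3.47, with 633, 298 and 353 H3K9me2 reads against 566, 347 and 265 H3 reads, and a mean of 2.66 ± 0.40 (SE, adjusted p = 0.0432, limma). The gene new16, 32 bp from it, had 0.04, −0.04 and 0.22, and the actin-assembly gene dip1 beyond it had a mean of −0.11. The rise was thus narrow. On chromosomes I to III, 3 of 34 called windows (8.82%) overlapped a long terminal repeat, against 3.23% of all windows tested there. The full-length retrotransposons could hardly be measured, since 1 of the 8 Tf2 windows passed the filter, with a ratio of 0.34.

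SPNCRNA.394, a non-coding RNA upstream of the enolase gene eno101, had 0.75, 2.75 and 2.67, with 970, 452 and 549 H3K9me2 reads against 1126, 819 and 717 H3 reads, and a mean of 2.06 ± 0.34 (SE, adjusted p = 0.0439, limma). No word in the window is repeated. The enolase gene eno101 itself, a highly expressed gene of glycolysis, had 0.35, 0.66 and 0.85 and a mean of 0.62 (adjusted p = 0.0432, limma), past the p threshold and below the fold threshold. SPBC17G9.13c on the other side had a mean of 0.02.

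The third locus consisted of prl53, SPAC27E2.11c and SPAC27E2.13, whose windows overlap. Their means were 1.08, 1.06 and 1.02, with 0.63, 1.08 and 1.48 in the 3 replicates of SPAC27E2.11c (adjusted p = 0.0335, limma). These were among the lowest ratios called. SPBC8E4.02c, counted with the subtelomere of the right arm of chromosome II but 96421.5 bp from its end, was similar, with 0.64, 0.81 and 1.76 and only 82 and 125 H3K9me2 reads in replicates 2 and 3. It lies beside pho84 and pho1, for a phosphate transporter and an acid phosphatase, whose means of 0.57 (adjusted p = 0.0447, limma) and 0.62 (adjusted p = 0.0432, limma) passed the p threshold only. The third phosphate-related gene of the list, tgp1, had a mean of −0.11 over a window that holds 21.4% of it.

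Windows close to the fold threshold show how the line was drawn. Just inside it were SPAC27E2.13 (1.02), SPAC27E2.11c (1.06) and SPCTRNAARG.10 (1.06). Just outside were the non-coding RNA SPNCRNA.963 (0.99), moa1 (0.95) and the small nucleolar RNA snoU14 (0.91). Without regard to size, 159 windows were higher (2.42%) and 6 were lower (0.0913%) at an adjusted p under 0.05 (limma). The adducin gene SPBC1289.14 was the furthest below 0 of the 6, at a mean of −0.54. The 16 core quiescence genes, a list the study defined by lasting induction in starved cells, had a median of −0.04 ± 0.09 (SD, n = 3). Of these 16, 0 were called, where 0.536% of all windows outside the mitochondrial genome were.

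The other antibodies separated the called windows into different kinds. They were set over the same H3 libraries, so the values share their denominator and are given side by side without a test. At the 16 subtelomeric windows the median log2 ratio was 2.86 for H3K9me3, −2.45 for H3K4me3, which marks the starts of active genes, −1.08 for H3K9ac, −1.17 for H2A.Z and −1.63 for RNA polymerase II phosphorylated at S5. Of these 16, 15 were above 0 for H3K9me3 and 15 below 0 for S5 in all 3 replicates, and the exceptions were pfl9 for H3K9me3 and SPBC8E4.02c for S5, with S5 ratios of 2.12, 2.41 and 3.27. The gene mat2-Pc followed the same pattern, with 2.87 for H3K9me3 and −2.74 for H3K4me3.

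The 11 centromeric windows had H3K9me3 and low H3K4me3 but were not low in every active mark. Their medians were 1.40 for H3K9me3, −1.79 for H3K4me3, 0.14 for H3K9ac, 0.38 for H2A.Z, −0.15 for S2, the form of RNA polymerase II later in transcription, and −0.61 for S5. Among the windows elsewhere, SPNCRNA.394 had H3K9me3 at 1.68, H3K4me3 at −1.94 and S5 at −1.10. SPNCRNA.1506 had H3K9me3 at 2.98 and S5 at −0.38, but H3K4me3 at −0.22, with −0.45, −0.31 and 0.09 in the replicates, H2A.Z at 0.75 and H3K9ac at 0.36. It thus lacked the low H3K4me3 of SPNCRNA.394. At mei4 H3K9me3 was 0.40, with −0.01, 0.31 and 0.91 in the replicates, and S5 was 0.20.

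SPAC27E2.11c and SPBC8E4.02c differed from the rest. SPAC27E2.11c had S5 log2 ratios of 2.47, 1.75 and 2.35 and mean ratios of 1.71 for S2, 1.05 for H3K9ac and 1.18 for H3K9me3. SPBC8E4.02c had mean ratios of 2.60 for S5, 2.20 for S2, 1.66 for H3K9ac and 1.25 for H3K9me3. Both forms of RNA polymerase II, acetylation and methylation of lysine 9 were thus high over H3 here, while H3K4me3 had means of −0.19 and −0.03. In the 3 H3 libraries SPAC27E2.11c stood at 32.8%, 25.1% and 16.7% of the read maximum, and SPBC8E4.02c stood at 25.3%, 13.7% and 7.35% of the read maximum, against 42.7%, 37.2% and 35.3% for the median window. In the 3 H3K9me2 libraries SPBC8E4.02c stood at 20.2%, 1.96% and 2.99%, below the median window in each (21.8%, 3.06% and 4.27%). SPAC27E2.11c stood at 26.0%, 4.33% and 5.61%, above the median window in each. The ratio of SPBC8E4.02c was thus high although its share of the H3K9me2 read maximum was below that of the median window. The part of the low H3 denominator in the ratios was not tested.

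**Figure D5:**
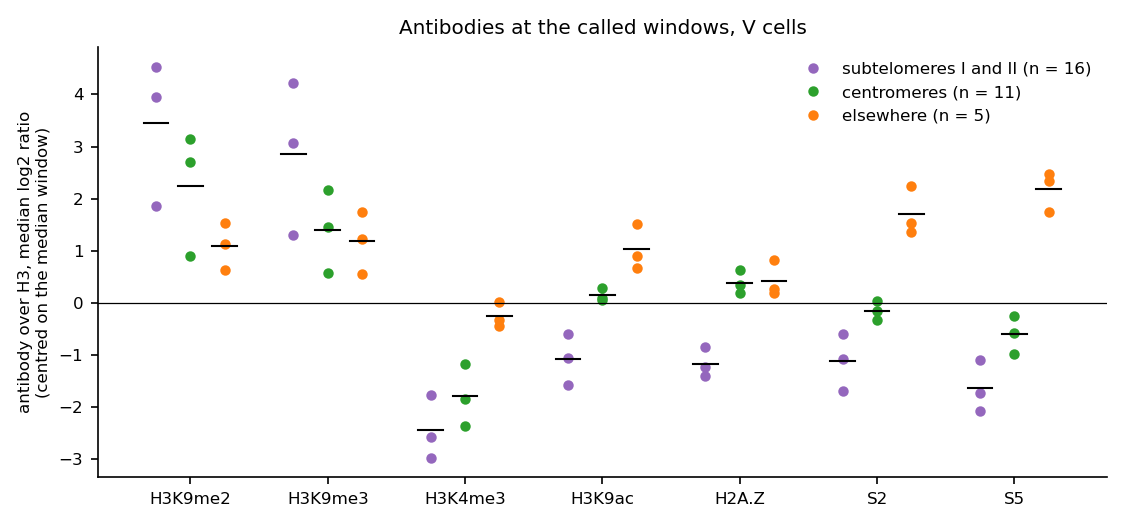
Median log2 ratio over H3 (vertical) of H3K9me2 and 6 other antibodies at the called subtelomeric (16), centromeric (11) and other (5) windows in V cells, 1 point per replicate and a bar for the mean of the 3. H3K9me2 and H3K9me3 are above 0 in all 3 classes, and H3K4me3 is lowest at subtelomeres. The S2 and S5 medians are high at the windows elsewhere, where 3 of 5 windows are above 0 in all 3 replicates. Those 3 are the overlapping windows of prl53, SPAC27E2.11c and SPAC27E2.13, so these medians rest on 1 locus. At SPNCRNA.394 and SPNCRNA.1506 S5 is below 0 in all 3 replicates.

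The mitochondrial genome carries no nucleosomes, and its windows are listed apart for that reason. All 38 were above 0 in every replicate, at medians of 0.97, 2.09 and 3.88, and 37 were called. SPMITTRNAVAL.01, with a mean of 2.25, missed the p threshold (adjusted p = 0.0504, limma). In replicate 1 the median mitochondrial window stood at 99.9% of the read maximum for H3K9me2 and at 100.1% for H3, in replicate 2 at 32.4% and 94.9%, and in replicate 3 at 57.5% and 33.0%. H3K9me3 over H3 was also high there, at 1.88, and H3K4me3 had 1.84, −0.78 and 1.26. With mitochondrial windows left out of the fit, limma called 47 windows, including all 35.

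In Q cells, set over the H3 libraries of Q cells, the 35 windows had medians of 0.13, 1.18 and 1.36 for H3K9me2. These windows were picked for high ratios in V cells, so lower values in Q cells do not measure a loss. The difference between V and Q cells was not tested. The first Q replicate was again the lowest. At mei4 the values in Q cells were 0.01, 0.32 and 0.27.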

How the data were processed

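The authors aligned single-end reads of immunoprecipitated chromatin with BWA 0.7.17 (SAMtools 1.17, bcl2fastq 2.20.0.422, build ASM294v2 per the submitters' processing notes), counted them in windows with deepTools 3.3.2, and deposited a signal, reads per window divided by a DESeq2 size factor; no source used here states whether duplicates or poorly mapped reads were removed. Deposited fold changes and p-values of Q against V cells were not used. The H3K9me2 and H3 tables were normalised separately; a factor per library cancels on centring. Whole reads were recovered from the deposited signal. The columns used in no sample numbered 0.

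Same-numbered libraries formed log2((H3K9me2 + 1)/(H3 + 1)), fitted in limma 3.58.1 (R 4.3.3, intercept with a variance trend, Benjamini-Hochberg). Deviations from the group means correlated between same-numbered libraries at 0.677, 0.339 and 0.229, all over 0.1, so the numbers were taken as pairing them. H3K9me2 replicate 2 correlated more with H3 replicate 3 (0.481), and 3 with 2 (0.402), so only replicate 1 correlated best with its own number. Replicates of an antibody were not duplicates (chi-square per degree of freedom from 1.38 to 20.1). Tested on simulated data, limma, edgeR and DESeq2 each called 50 of 50 windows at each log2 change of 1.5 or 3, as did limma without the pairing, so the simulated spread is not that of these libraries. Alternatives used edgeR 4.0.16 and DESeq2 1.42.0 on recovered reads, another pseudocount (5), no filter, mean H3, library totals, array weights, TSS windows, few repeats, and leaving out each replicate. Leaving out mitochondrial windows, alone or with a replicate, and windows over 50% of the read maximum were chosen after seeing the data.

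Members and lists were chosen with earlier results of these data known. The rule for naming took the 10 highest called windows, at most the 10 highest called outside regional lists, and all island, Mmi1-related, phosphate and helicase genes. It also took the 5 highest per regional list and 3 on either side of the fold threshold. Some windows that the rule took are left out of the text, among them SPAC186.04c, SPAC186.06 and several windows of the regional lists that were not called. Their neighbours, the windows at the inner edge of the right subtelomere of chromosome I, remaining called windows, and single windows elsewhere were named after their values were seen. Strand, products and repeated 36-base words came from RefSeq ASM294v3, matched by identifier (31 of 34 called windows on chromosomes I to III). Figures used Python 3.11.15 with numpy 2.4.6, pandas 2.3.3 and matplotlib 3.10.9.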

Additional observations from a re-analysis of the deposited data

How the results depend on the processing

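The count of 72 called windows ranged from 69 to 99 when a replicate was left out, was 50 with no filter on low values (19 shared with the 72, 0 mitochondrial) and between 72 and 88 with a pseudocount of 5, mean H3, library totals, edgeR or array weights. It was 38 with DESeq2 (0 of them mitochondrial, 32 shared with the 72), 39 over TSS windows, 24 over windows with under 10% repeated words, 47 without mitochondrial windows and 26 among the 5824 windows under 50% of the read maximum (15 shared). Without mitochondrial windows and a replicate it was from 31 to 64. Without the replicate block, limma called 0 windows, with a smallest adjusted p of 0.155. No alternative called a window depleted. Fewer windows are tested when windows are left out, and the cause of the other differences was not tested. The median of the extra contigs was −0.19 over TSS windows and −0.16 under 50% of the maximum, that of Mmi1-related genes 0.099 with array weights and 0.082 over TSS windows, that of mug and meu genes −0.11 with library totals and −0.045 with edgeR, and that of Tf2 elements 1.63 with no filter. Named windows kept direction and side of the threshold in 1081 of their values under the alternatives, moved inside it in 39 and outside it in 73, and 0 reversed. Replicate 2, with the fewest reads, limits what its low windows can show.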
